A study of Mus musculus with 11 samples.

Results

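Transcripts of 4 subunits of the GABA-A receptor, the beta subunits Gabrb1 and Gabrb2 and the gamma subunits Gabrg1 and Gabrg3, were described in RNA sequencing libraries of the mouse hippocampus. They were found by gene symbol among 30681 genes of the count table, and all 4 had enough counts to be tested. The set was chosen by its fold changes between the genotypes in an earlier analysis of these libraries, so the differences between genotypes below are a description and carry no test of their own. The study set 6 libraries labelled as a conditional knockout (cKO) of Dclk3, a kinase gene of the doublecortin family, beside 5 wild-type (WT) libraries, all from mice aged 6 months and each from a single hippocampus. Such a knockout removes a gene only where a recombinase is present. Which recombinase line was used, and which exons of Dclk3 it removes, is not stated in the labels. The labels do not state whether the libraries came from different animals or litters, so any p-value measures only the spread between these samples.

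GABA-A receptors are chloride channels opened by the transmitter GABA, and they carry most fast inhibition in the forebrain. Each channel is a ring of subunits, usually of the alpha, beta and gamma or delta classes. The binding site for GABA lies between an alpha and a beta subunit, and the site for benzodiazepines between an alpha and a gamma subunit. Receptors that hold the beta1 subunit are less sensitive to the anaesthetic etomidate than those that hold beta2. The gamma1 and gamma3 subunits are minor gamma subunits of the forebrain, and gamma1 and beta1 transcripts are also found in astrocytes.

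The libraries held 24001828 to 35674490 counts each. The transcript Xist and 4 Y-linked genes read 3 WT libraries (replicates 1, 3 and 4) as female and the other 8 libraries as male, so sex was not balanced between the genotypes. Levels are given as CPM, counts scaled to the TMM-adjusted library total. Dclk3 had 20.1 ± 3.44 CPM (SD) over the 6 libraries labelled cKO and 22.4 ± 3.31 CPM (SD) over the 5 WT libraries. The values overlapped, and since counts are per gene a deleted exon cannot be seen in them, so the group is called "labelled cKO". Markers of the dentate gyrus and of the CA fields were present in every library: the summed level of 6 dentate granule cell genes was 386 to 515 CPM and that of 5 CA1 genes 651 to 806 CPM. No gene of the 13 cell type and tissue lists was at 0 in all libraries, and Folr1 and Kcnj13 of the choroid plexus list had a mean under 1 CPM.

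The 4 genes lie in 3 clusters of GABA-A subunit genes. In the GENCODE M21 annotation of mm10, Gabrg1 (ENSMUSG00000001260, minus strand) spans chr5:70751047-70842617, and Gabrb1 (ENSMUSG00000029212, plus strand) spans chr5:71658113-72149037. Between them on chromosome 5 lie Gabra2 and Gabra4. Gabrb2 (ENSMUSG00000007653, plus strand) spans chr11:42419757-42629028, 98.7 kb from Gabra6. Gabrg3 (ENSMUSG00000055026, minus strand) is the longest of the 4 genes, at chr7:56716465-57387188, and its start lies 20.5 kb from Gabra5. Gabrb1 and Gabra4 run in opposite directions from overlapping first exons: the gene models overlap by 196 bases and share 46 exon bases, which is 0.332% of the exon bases of Gabrb1. Whether the counting used the strand is not given, so reads in those bases cannot be assigned to either gene. The other 3 genes share no exon bases with another annotated gene.

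The 250 bases before the first start of Gabrb2, Gabrg1 and Gabrg3 are shown. They set a promoter of a beta gene beside those of the gamma genes, the pair of highest rank correlation over the libraries. The windows are from RefSeq on GRCm38.p6, 5′ to 3′ on the strand of the gene. The regions are chr11:42420190-42420439 (plus), chr5:70842618-70842867 (minus) and chr7:57387216-57387465 (minus). Capitals mark every match, on either strand, to any of 7 motifs. These were the cAMP response element TGACGTCA, the AP-1 site with the letters TGACTCA, the EGR site GCGTGGGCG, the GC box with the letters GGGCGG, the E-box with the letters CACGTG, the TATA box with the letters TATAAA, and the CCAAT box.
Gabrb2: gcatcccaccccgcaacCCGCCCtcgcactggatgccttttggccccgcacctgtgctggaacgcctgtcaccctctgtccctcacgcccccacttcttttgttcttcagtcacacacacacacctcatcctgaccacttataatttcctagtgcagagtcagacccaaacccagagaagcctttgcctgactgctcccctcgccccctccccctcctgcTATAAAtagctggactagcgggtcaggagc
Gabrg1: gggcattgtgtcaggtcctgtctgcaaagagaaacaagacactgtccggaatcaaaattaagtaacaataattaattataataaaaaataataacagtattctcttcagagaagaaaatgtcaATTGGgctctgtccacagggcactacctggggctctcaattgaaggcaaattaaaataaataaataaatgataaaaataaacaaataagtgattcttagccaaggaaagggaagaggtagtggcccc
Gabrg3: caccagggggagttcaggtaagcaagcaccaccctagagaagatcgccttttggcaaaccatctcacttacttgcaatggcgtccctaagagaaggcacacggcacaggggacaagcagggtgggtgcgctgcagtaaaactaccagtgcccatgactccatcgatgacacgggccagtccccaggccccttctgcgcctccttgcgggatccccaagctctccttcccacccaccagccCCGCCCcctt

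Gabrb2 held TATAAA beginning 30 bases before its start, a motif present in 12.4% of the 32851 RefSeq windows of this length, and a GC box, present in 32.7%. Gabrg3 held a GC box beginning 10 bases before its start, and Gabrg1 held CCAAT, present in 33.8% of windows, on the other strand. No match to the cAMP response element (1.55% of windows), AP-1 (4.46%), EGR (0.536%) or E-box (6.02%) letters lay in these 3 windows, and no 2 matches overlapped. GENCODE starts Gabrb2 further upstream, so that its window lies in the first intron there, and the Gabrg3 window holds 123 exon bases of Gm9962, an antisense gene on the plus strand. The 3 windows differed in base composition. GC made up 58.8% of the Gabrb2 window and 60.4% of the Gabrg3 window, but 35.6% of the Gabrg1 window, which is lower than in all but 5.41% of windows. The first Gabrb1 window had 64.4% GC and held none of the 7 motifs. It is not printed, since 197 of its bases are the first exon of Gabra4.

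Gabrb1 and Gabrb2 had higher values in every library labelled cKO than in any WT library. Gabrb1, which encodes the beta1 subunit, had 212.7, 224.1, 209.0, 209.2, 213.5 and 203.4 CPM in replicates 1 to 6 labelled cKO. In WT replicates 1 to 5 it had 192.3, 198.5, 185.8, 172.7 and 194.0 CPM. The groups did not overlap, although the lowest library labelled cKO lay only 2.48% above the highest WT library, and WT replicate 4 was the lowest of all. The means were 212.0 ± 6.92 CPM (SD, n = 6) and 188.7 ± 10.02 CPM (SD, n = 5), a difference of 12.4% and a log2 fold change of 0.17 ± 0.04 (SE).

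Gabrb2 encodes the beta2 subunit, a common beta subunit of synaptic receptors. Its level was 116.9, 112.1, 121.2, 119.7, 121.0 and 110.2 CPM in replicates 1 to 6 labelled cKO. The WT replicates 1 to 5 had 102.1, 106.7, 103.4, 102.4 and 103.8 CPM. These 5 libraries lay close together, and the lowest library labelled cKO was 3.30% above the highest of them. The means were 116.8 ± 4.69 CPM (SD, n = 6) and 103.7 ± 1.84 CPM (SD, n = 5), a difference of 12.7% and a log2 fold change of 0.17 ± 0.04 (SE).

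**Figure D1:**
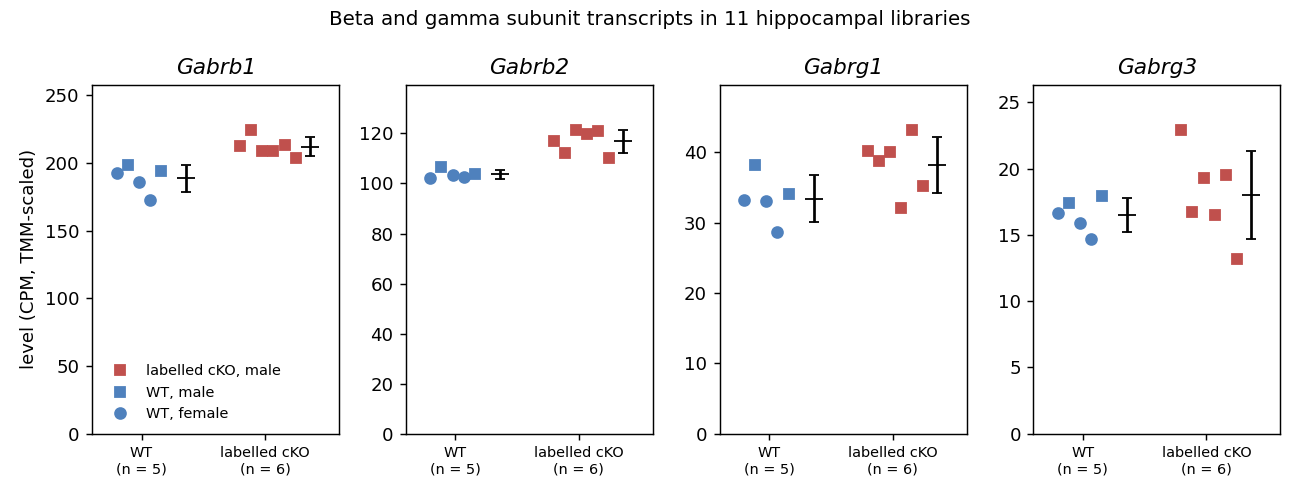
Level in CPM (y axis, from 0) of each of the 4 subunit genes in each library, by group (x axis). Squares are male and circles female libraries, and the black bars give the mean and SD. The groups of Gabrb1 and Gabrb2 do not overlap, and those of Gabrg1 and Gabrg3 do.

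The gamma subunits had higher means in the libraries labelled cKO, but their groups overlapped. Gabrg1, which encodes gamma1, had 40.1, 38.7, 40.06, 32.0, 43.1 and 35.2 CPM in replicates 1 to 6 labelled cKO. WT replicates 1 to 5 had 33.2, 38.1, 33.03, 28.6 and 33.99 CPM. Of the libraries labelled cKO 4 lay above every WT library, while replicates 4 and 6 lay within the WT range. The log2 fold change was 0.19 ± 0.08 (SE), the highest of the 4 genes and with a wider error than those of the beta subunits.

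Gabrg3, which encodes gamma3, had the lowest level of the 4 genes. It had 22.9, 16.7, 19.3, 16.5, 19.5 and 13.1 CPM in replicates 1 to 6 labelled cKO and 16.6, 17.4, 15.9, 14.7 and 17.9 CPM in WT replicates 1 to 5. Both the highest and the lowest of all 11 values were in libraries labelled cKO, replicates 1 and 6. The log2 fold change was 0.13 ± 0.11 (SE), about its own error. It became 0.05 without replicate 1 labelled cKO and 0.20 without replicate 6 labelled cKO.

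The gap between female and male WT libraries was not the same for the 4 genes. The mean of the 3 female libraries differed from that of the 2 male ones by -2.51% for Gabrb2 and by -6.44% for Gabrb1. It differed by -12.35% for Gabrg1 and by -10.8% for Gabrg3, and these gaps were not tested. WT replicate 4, a female library, was the lowest WT library for Gabrb1, Gabrg1 and Gabrg3. Against the 2 male WT libraries alone, the mean of the libraries labelled cKO was 11.02% higher for Gabrb2, 8.01% for Gabrb1, 5.92% for Gabrg1 and 1.99% for Gabrg3. All 6 libraries labelled cKO still lay above both male WT libraries for Gabrb1 and Gabrb2.

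In the fit to the 8 male libraries, an alternative chosen after the data were seen, the log2 fold change was 0.15 ± 0.06 for Gabrb2 and 0.11 ± 0.06 for Gabrb1 (SE). It was 0.08 ± 0.10 for Gabrg1 and 0.03 ± 0.16 for Gabrg3 (SE). A sex term over all 11 libraries gave nearly the same values, 0.15, 0.11, 0.08 and 0.03 in that order. The difference of Gabrb2 thus moved least, and that of Gabrg1 became smaller than its error.

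**Figure D2:**
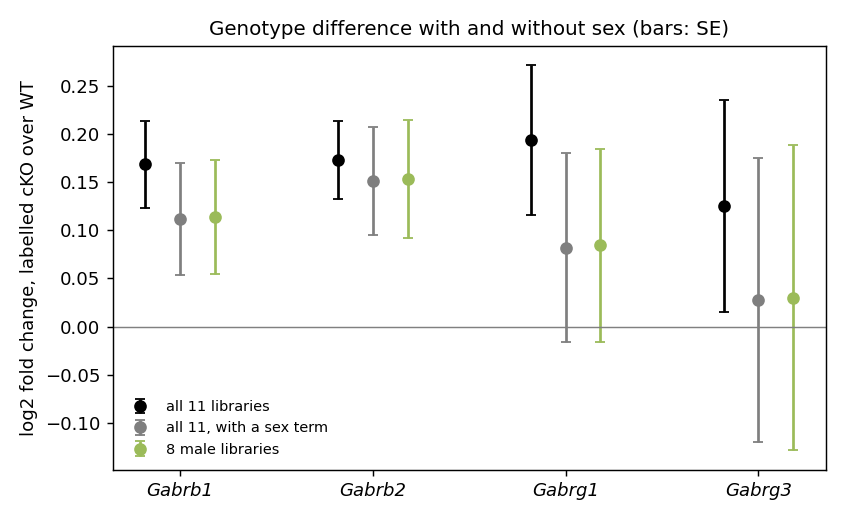
Log2 fold change of the libraries labelled cKO over WT (y axis) for each gene (x axis), with bars of 1 SE, in all 11 libraries, with a sex term, and in the 8 male libraries. The values of Gabrb2 stay between 0.15 and 0.17, while that of Gabrg1 goes from 0.19 to 0.08.

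Over all 16587 genes tested, edgeR's quasi-likelihood test called 0 (0%) at an adjusted p under 0.05, so none of the 4 subunits passed. At an unadjusted p under 0.05 in edgeR there were 1524 genes. DESeq2 called 61 genes, 0.426% of the 14313 to which it gave an adjusted p. Among them were Gabrb1 and Gabrb2 but neither gamma subunit. EdgeR called 14 genes without WT replicate 5, 2 without WT replicate 2 and 1 without WT replicate 1. On the 8 male libraries DESeq2 called 2 genes, neither of them one of the 4. All 6 libraries labelled cKO lay above all 5 WT libraries for 67 genes (0.404%), and Gabrb1 and Gabrb2 are 2 of them. They lay below for 85 genes (0.512%), 0 of them among the 4. A log2 fold change above 0 was found in 50% of all genes and in all 4 subunits. Since the 4 were chosen with this comparison known, nothing is read from these shares.

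Per exon length, the beta subunits were far more abundant than the gamma subunits in the hippocampus. Gabrb2 had 17.4 ± 1.22 CPM per kb of exon over the 11 libraries (SD), Gabrb1 14.6 ± 1.05, Gabrg1 4.58 ± 0.55 and Gabrg3 1.45 ± 0.22 CPM per kb. Gabrb2 was at a higher level than 83.2% and Gabrg3 than 30.7% of 16547 tested genes with an annotated length. Gabrb2, Gabrb1, Gabrg1 and Gabrg3 stood in this order in all 11 libraries. Each step down had the same sign in all 11 libraries (2-sided exact permutation test by sign flips, p = 0.000977 for each of 3 steps, the smallest that 11 libraries allow, and 0.000977 after Benjamini-Hochberg adjustment). The order was read from these same libraries and the gene lengths are fixed in the test. The p therefore measures only how steady each ratio was over the libraries. The step from Gabrb2 to Gabrb1 was the smallest, a ratio of 1.20, beside 3.19 from Gabrb1 to Gabrg1 and 3.17 from Gabrg1 to Gabrg3. The sizes depend on which length stands for a gene. With the longest transcript in place of all annotated exons, the ratios became 1.90, 1.95 and 4.27, in the same order.

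**Figure D3:**
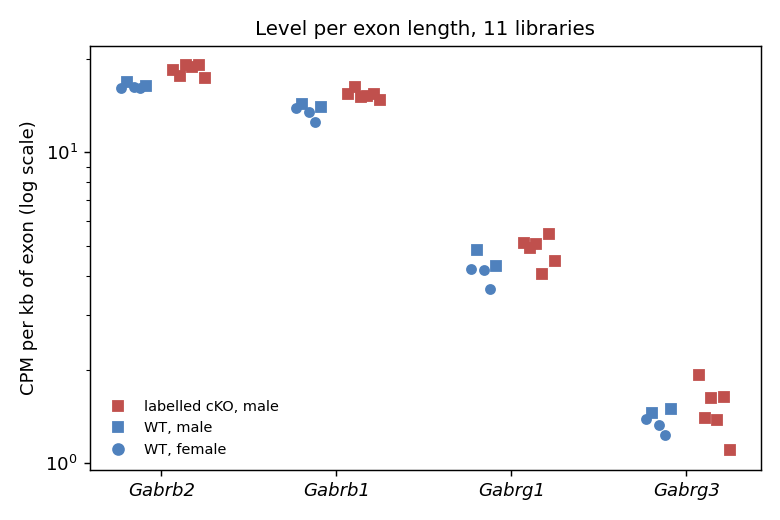
Level in CPM per kb of exon (y axis, log scale) of the 4 genes (x axis) in each of the 11 libraries, coloured by group. Gabrb2 lies highest and Gabrg3 lowest, from 1.10 to 1.92 CPM per kb.

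The genes also differed in how much they varied between libraries of 1 group. The pooled SD of the log2 level within groups was 0.05 for Gabrb2, below that of all but 2.14% of tested genes, and 0.06 for Gabrb1. It was 0.15 for Gabrg1 and 0.22 for Gabrg3, at the 57.7th and 71.6th percentiles of tested genes. Counting error was smaller than this spread in the gamma genes: Gabrg1 had 961 to 1377 counts, which gives a counting error of at most 3.23%, and Gabrg3 had 368 to 693 counts, at most 5.21%. Gabrb2 had 2887 to 4115 counts and a counting error of 1.56% to 1.86%, about the 1.77% coefficient of variation of its 5 WT libraries. Gabrg3 varied by 18.5% (coefficient of variation) in the libraries labelled cKO and by 7.69% in WT, a difference that was not tested.

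With the group means removed, the 2 gamma subunits had the highest rank correlation of the 6 pairs, while the highest Pearson r was that of Gabrb1 and Gabrg1. Over the 11 libraries the log2 levels of Gabrg1 and Gabrg3 had Pearson r = 0.64 (permutation p = 0.0422, adjusted over 6 pairs 0.127) and Spearman rho = 0.836 (permutation p = 0.00315, adjusted 0.0189). Libraries below their group mean in both were replicates 4 and 6 labelled cKO and WT replicates 3 and 4, and libraries above it in both were replicates 1, 3 and 5 labelled cKO and WT replicates 2 and 5. Without the 2 libraries farthest from the median of Gabrg1, replicate 4 of each group, r was 0.679. It was 0.634 within the 6 libraries labelled cKO, 0.835 within the 5 WT libraries and 0.584 in the 8 male libraries. The rank correlation passed the adjustment over all 11 libraries, and Pearson's did so only without replicate 4 labelled cKO (r = 0.676). The rank correlation is given for all 11 libraries alone. Only the group mean was removed, so the gap between female and male WT libraries remained in these deviations.

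**Figure D4:**
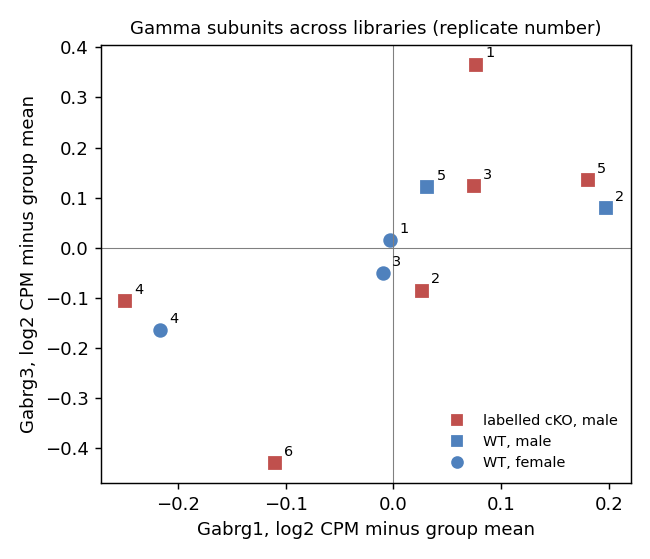
Log2 CPM of Gabrg3 (y axis) against that of Gabrg1 (x axis), each minus the mean of its group, 1 point per library with its replicate number. Replicate 4 of both groups lies low in both genes (Pearson r = 0.64 over 11 libraries).

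Of the other 5 pairs, Gabrb1 and Gabrg1 had r = 0.676 (permutation p = 0.034, adjusted 0.127) and rho = 0.582 (permutation p = 0.0802, adjusted 0.16). Without replicate 2 labelled cKO and WT replicate 4 that r was 0.626, and it was 0.435 in the 8 male libraries. Within WT it was 0.942, and within the libraries labelled cKO 0.395. Gabrb2 and Gabrg3 had r = 0.628 (permutation p = 0.115, adjusted 0.173) and rho = 0.655 (permutation p = 0.078, adjusted 0.16). That relation rested on replicates 2 and 6 labelled cKO, without which r was -0.07. Gabrb1 and Gabrb2, which did not overlap between the groups, had r = 0.148 within groups (permutation p = 0.636, adjusted 0.636) and rho = 0.127 (permutation p = 0.716, adjusted 0.716). Without replicate 2 labelled cKO and WT replicate 4 that r was 0.625, and it was 0.612 within WT and -0.07 within the libraries labelled cKO. The relation of Gabrb1 with Gabrg3 (r = 0.448, permutation p = 0.103, adjusted 0.173; rho = 0.4, permutation p = 0.222, adjusted 0.266) and that of Gabrb2 with Gabrg1 (r = 0.381, permutation p = 0.293, adjusted 0.352; rho = 0.545, permutation p = 0.107, adjusted 0.16) did not pass either. Without the 2 farthest libraries these r were 0.685 and 0.477. Gabrb1 with Gabrg3 had r = 0.942 within WT and 0.34 within the libraries labelled cKO. For Gabrb2 with Gabrg1 these were 0.818 and 0.266, and for Gabrb2 with Gabrg3 0.549 and 0.639.

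The genes most like each subunit were taken by Pearson r of the same deviations over 11 libraries, among all tested genes. For Gabrb2 they were Spin1 (r = 0.966), a reader of histone marks, Scamp1 (0.961), a membrane protein of secretory vesicles, and Usp14 (0.939), a deubiquitinase of the proteasome. For Gabrb1 they were A730009L09Rik (0.937), Zfp438 (0.914) and Gna13 (0.913), a G protein subunit. For Gabrg1 they were Fam172a (0.977), Gm37928 (0.954) and Arl4a (0.952). For Gabrg3 they were Npsr1 (0.98), the neuropeptide S receptor, Raph1 (0.957) and Etv4 (0.947), with Npsr1 at a mean of only 0.914 CPM. No other of the 4 subunits was among them, and with so many genes and 11 libraries a high r is always found, so no p is given.

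The subunit genes beside them were described from the same fit. Gabra2, the neighbour of Gabrg1 on chromosome 5, was the gene of smallest p among the other GABA-A subunits, at 292.5 ± 12.1 CPM (SD) over the 6 libraries labelled cKO and 255.8 ± 9.25 CPM (SD) over the 5 WT libraries. Its log2 fold change of 0.19 ± 0.04 (SE) was 0.22 in the 8 male libraries, and all 6 libraries labelled cKO lay above all 5 WT libraries, as for 0.404% of all genes tested. Gabra4, which starts within the first bases of Gabrb1, had 0.09 ± 0.06, and its groups overlapped. Gabra5, the neighbour of Gabrg3, had -0.01 ± 0.05, and Gabra6, the neighbour of Gabrb2, had at most 8 counts in a library and was not tested. Gabrd, the delta subunit that takes the place of gamma in receptors outside synapses, had -0.34 ± 0.08 (log2 ± SE), and -0.29 in the 8 male libraries. Its groups overlapped, since WT replicate 1 had 25.55 CPM, within the 22.0 to 26.89 CPM of the libraries labelled cKO. Of 15 other GABA-A subunits listed 10 were tested and 0 were called by edgeR, which called 0% of all genes tested. The tested ones held 6 above and 4 below 0, with a median log2 fold change of 0.06, beside -1e-04 over all genes tested. Of those below 0, Gabrr2 and Gabrq, named here after their values were seen, were near the floor. Their means were 0.48 and 0.40 CPM in the libraries labelled cKO, with SE of 0.27 and 0.34 on the log2 fold change. With a filter of at least 50 counts in at least 5 libraries the list median was 0.09, beside 4e-04 over all genes. DESeq2 called 2 of the other GABA-A subunits, Gabra2 and Gabrd, beside 0.426% of all genes to which it gave an adjusted p. It called 0 of them with a sex term and 0 on the 8 male libraries, fits in which it called 3 and 2 genes in all.

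Genes that anchor or transport these receptors were read in the same fits. Of 21 organisers of the inhibitory synapse and trafficking factors, all tested, 0 were called by edgeR or by DESeq2. Over all genes with an adjusted p the shares were 0% and 0.426%, so 0 calls says nothing about this list. Of the 21 genes 16 lay above and 5 below 0, and the median log2 fold change was 0.03. The members of smallest p were Trak2, a motor adaptor (0.28 ± 0.12), Insyn1, a protein of the inhibitory postsynapse (0.11 ± 0.05), Shisa7, an auxiliary subunit of the receptor (-0.12 ± 0.06), and Gabarapl2 (0.11 ± 0.06; log2 ± SE). In the 8 male libraries Trak2 had 0.21, Insyn1 0.14, Shisa7 -0.19 and Gabarapl2 0.11. Gphn, which encodes the scaffold gephyrin and is named here after its value was seen, had 0.03 ± 0.06 (log2 ± SE), and 0.16 in the 8 male libraries. Of 8 genes of chloride transport 0 were called by either tool, again beside 0% and 0.426% of all genes with an adjusted p. The median was -0.03. The members of smallest p were Wnk1 (0.09 ± 0.05), Clcn2 (-0.10 ± 0.08), Wnk3 (0.09 ± 0.08) and Stk39 (0.05 ± 0.04; log2 ± SE), which are kinases except the channel Clcn2. In the 8 male libraries these were 0.03, -0.22, -0.01 and 0.06, so Wnk3 changed sign.

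Cell type markers were summed in the same libraries. The summed level of 10 interneuron genes was 697.5 to 937.5 CPM in the libraries labelled cKO and 750.6 to 826 CPM in WT. The summed level of 10 astrocyte genes was 10030 to 12330 CPM in the libraries labelled cKO and 8366 to 9726 CPM in WT. These sums did not overlap, and the mean sum was 19.9% higher. Of the 10 genes 0 alone lay higher in every library labelled cKO than in any WT library, beside 0.404% of all genes tested. In the 2 male WT libraries the astrocyte sum was 8854 and 9465 CPM. The 8 microglia genes summed to 657.7 to 1002 CPM in the libraries labelled cKO and 661.2 to 736.1 CPM in WT, with overlap, and 8 of the 8 had a log2 fold change above 0. Of the 10 astrocyte genes 9 had a log2 fold change above 0, with a median of 0.18, 0 were called by edgeR and none was at 0 counts throughout. The 7 meninges genes summed to 88.3 to 177.9 CPM in the libraries labelled cKO and 118.1 to 179.5 CPM in WT, with overlap. Of them 6 had a log2 fold change below 0, the median was -0.615, and the mean sum differed by -16.9%. The 9 genes of the neighbouring thalamus summed to 127.5 to 170.0 CPM and 158.5 to 171.0 CPM, and 2 of them, Zic1 and Ramp3, were lower in every library labelled cKO than in any WT library, beside 0.512% of all genes tested. In each of the 13 lists 0 genes were called by edgeR, which called 0 of all 16587 genes tested. The part of astrocytes, microglia, meninges and thalamus in the differences of the 4 subunits was not tested. Bulk tissue cannot tell more cells of a type from more RNA per cell.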

How the data were processed

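Polyadenylated RNA of 11 hippocampal libraries was sequenced with a kit that marks strand, per the labels' protocols. Software bcl2fastq 2.17.1.14 and genome build mm10 are given per the submitters' processing notes. No aligner, counter or annotation is given in the sources used. The authors deposited raw, whole-number counts for each Ensembl gene. Symbols matched 30566 of 30681 genes, and gene models came from GENCODE M21. Library totals ran from 24001828 to 35674490. Replicate pairs within a group differed by a chi-square of at least 5.70 per degree of freedom, more than counting error alone. None of these pairs was thus a repeat of 1 library, and each library was treated as 1 sample. The chi-square cannot show whether libraries came from different animals.

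Genes were filtered with filterByExpr and scaled by TMM. Levels in CPM, levels per kb of exon (all annotated exons of the gene) and log2 CPM (prior count 2) were computed here from the deposited counts. The genotype was fitted over 16587 genes with edgeR's robust 2-sided quasi-likelihood F test, adjusted by Benjamini-Hochberg, threshold 0.05. Standard errors were derived from F. Correlations used 100000 permutations within groups. Versions were edgeR 4.0.16, DESeq2 1.42.0 and limma 3.58.1 in R 4.3.3.

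The members and lists were chosen with earlier results of these data known. The rule for named genes took the 4 subunits, Dclk3, the other GABA-A subunits that share a cluster with them or have the 4 smallest p, up to 4 genes of smallest p in each other list, and the 3 genes most alike per subunit. Some genes it takes are not named here. Alternatives were other scaling, other filters, a replicate block, DESeq2, limma-voom with quality weights, each library left out, and another gene length. A sex term and the 8 male libraries were added after the data were seen. On simulated counts of 16454 tested genes for 6 against 5 libraries, edgeR called 44% of 50 genes set to a 1.25-fold change, 74% at 1.5-fold, 80% at 2-fold and 96% at 3-fold, with 15 of 16260 unchanged genes called. No change as small as those of the 4 subunits (at most 14.4%, Gabrg1) was simulated, so these shares do not give the recovery for them. The shares also depend on how many genes were set to change.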

Additional observations from a re-analysis of the deposited data

How the results depend on the processing

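The log2 fold changes of the 4 subunits kept their sign under every alternative and moved by less than the SD between replicates. With a sex term Gabrg1 and Gabrb1 still moved by more than their SE in the main fit, by -0.11 beside 0.08 and by -0.06 beside 0.04. Gabrg3 moved by -0.10 and Gabrb2 by -0.02, less than their SE of 0.11 and 0.04. Leaving out 1 library gave 0.13 to 0.19 for Gabrb1, 0.16 to 0.19 for Gabrb2, 0.14 to 0.25 for Gabrg1 and 0.05 to 0.20 for Gabrg3. Replicate numbers did not pair the libraries: deviations of same-numbered libraries correlated from -0.32 to 0.21, and 1 of 5 was best matched by its own number. The replicate block, without replicate 6 labelled cKO, gave 0.18, 0.19, 0.21 and 0.20 (Gabrb1, Gabrb2, Gabrg1, Gabrg3) and 0 calls. The number of genes called went from 0 to 1 with the library total alone, 3 without a filter, 61 with DESeq2, 3 with DESeq2 and a sex term, 2 with DESeq2 on the 8 male libraries, and 0 to 14 without 1 library, the 14 without WT replicate 5. DESeq2 called 2 other GABA-A subunits, and 0 once sex was in the model or the libraries were male alone. The median of the inhibitory synapse list became 0.0049 with the library total alone, 0.0609 with DESeq2 and a sex term, 0.0626 with DESeq2 on the male libraries, and 0.0306 to 0.0609 without 1 library. The medians without 1 library were 0.04 to 0.09 for the other GABA-A subunits and -0.05 to 0.0029 for chloride transport, where 0 genes were called in each list. Between Gabrb1 and Gabrb2, r was 0.625 without the 2 farthest libraries, and turned to -0.11 without replicate 6 labelled cKO, -0.001 without WT replicate 2, -0.0212 in the 8 male libraries and -0.0704 in the 6 libraries labelled cKO, and between Gabrb2 and Gabrg3 to -0.0747 without its 2 farthest libraries. The cause of these changes was not tested. Without 1 library r ran from -0.11 to 0.46 (Gabrb1 and Gabrb2), 0.49 to 0.77 (Gabrb1 and Gabrg1), 0.31 to 0.59 (Gabrb1 and Gabrg3), 0.25 to 0.72 (Gabrb2 and Gabrg1), 0.30 to 0.79 (Gabrb2 and Gabrg3) and 0.60 to 0.68 (Gabrg1 and Gabrg3). Leaving out replicate 2 or 4 labelled cKO brought 4 of these relations past the adjusted threshold. The log2 ratios of neighbouring levels kept their sign and call, at 0.25 to 0.27, 1.65 to 1.69 and 1.63 to 1.69 without 1 library. Counting error was at most 5.21% for Gabrg3, the gene of fewest counts, and was closest to the spread between libraries for Gabrb2 in WT.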
